A study of Mus musculus with 2 samples.

Results

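A group of 10 genes of lysosomal proteolysis was followed in mouse kidney: 8 cathepsins (Ctsb, Ctsc, Ctsd, Ctsh, Ctsk, Ctsl, Ctss and Ctsz) and 2 cystatins (Cst3 and Cstb). They were picked by name, as the array spots that carry these gene names, and make up 10 of 16698 measured genes. All 10 were measured, through 14 probes, and all 10 were well above background in both conditions on both arrays. The kidneys came from male CD-1 mice fed AIN-93G chow with adenine at 0.2% by weight, an agent that injures the kidney tubules, either alone or together with the phenolic acid HMPA at 2% by weight. Feeding began at 7 weeks of age and lasted 1 week per the labels' protocols, whereas the sample titles give an age of 12 weeks and 5 mice. The labels do not say whether RNA of these mice was pooled, and name no separate extract for each array. The arrays are therefore treated as a dye swap of 1 RNA sample per condition: array 1 had the HMPA sample in Cy5 and array 2 had it in Cy3. Both conditions carry adenine, and no kidney without adenine was hybridised, so the ratios compare HMPA with adenine alone and give no healthy level.

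Cathepsins are proteases that mature and work in the acid lumen of the lysosome. Most are cysteine proteases, while cathepsin D is an aspartic protease. Cystatins block the cysteine cathepsins: cystatin C (Cst3) is secreted, filtered at the glomerulus and taken up again by the proximal tubule, and stefin B (Cstb) stays in the cytosol. In kidney, cathepsins are made both by the tubule epithelium, which digests filtered protein, and by macrophages, which also use them to process antigen.

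The upstream sequence of 4 members is shown because these 4 either hold the motif CACGTG or GAGGAAGT or, for Ctss, had the largest difference of the group. RefSeq promoters of build GRCm38.p6 were matched by symbol for 7 of the 10 members (Cst3, Ctsc, Ctsd, Ctsk, Ctsl, Ctss and Ctsz), and the 250 bases before the annotated start were searched. Each is written 5′ to 3′ along the gene, with CACGTG, the core that TFEB and related lysosomal factors are known to bind, and GAGGAAGT, the core known for the myeloid factor PU.1, in capitals on either strand. Ctss lies at chr3:95526536-95526785 (plus strand), Ctsc at chr7:88277835-88278084 (plus), Ctsd at chr7:142387828-142388077 (minus) and Ctsl at chr13:64370521-64370770 (minus).
Ctss: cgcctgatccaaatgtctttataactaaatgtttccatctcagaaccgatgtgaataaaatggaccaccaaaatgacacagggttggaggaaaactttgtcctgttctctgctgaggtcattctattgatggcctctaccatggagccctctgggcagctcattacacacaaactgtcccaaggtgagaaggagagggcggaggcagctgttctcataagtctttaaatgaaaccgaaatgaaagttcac
Ctsc: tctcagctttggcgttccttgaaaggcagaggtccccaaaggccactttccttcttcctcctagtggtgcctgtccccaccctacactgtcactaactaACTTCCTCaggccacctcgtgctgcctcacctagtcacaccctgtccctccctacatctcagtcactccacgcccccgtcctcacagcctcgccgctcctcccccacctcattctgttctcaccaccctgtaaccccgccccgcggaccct
Ctsd: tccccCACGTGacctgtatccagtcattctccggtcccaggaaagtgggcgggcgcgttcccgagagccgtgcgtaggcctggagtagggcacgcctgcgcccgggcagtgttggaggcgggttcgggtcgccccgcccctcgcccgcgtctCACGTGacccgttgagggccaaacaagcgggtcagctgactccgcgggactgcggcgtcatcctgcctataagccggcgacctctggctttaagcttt
Ctsl: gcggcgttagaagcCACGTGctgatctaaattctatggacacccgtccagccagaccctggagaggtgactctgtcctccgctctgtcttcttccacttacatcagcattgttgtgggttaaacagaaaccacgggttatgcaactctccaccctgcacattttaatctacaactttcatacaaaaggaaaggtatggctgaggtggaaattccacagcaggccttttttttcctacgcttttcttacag

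CACGTG was found in Ctsd, 245 and 98 bases before the start, and in Ctsl, 236 bases before it. It was present in 6.02% of all 32851 promoter windows of this length. The longer forms GTCACGTG (1.85% of windows) and TCACGTGA (0.785%), which contain CACGTG, were found in Ctsd, and the longer palindrome known as the CLEAR element (0.240%) in 0 of the 7 members. GAGGAAGT (2.44%) was found in Ctsc on the opposite strand, 151 bases before the start, as was the GGAAGT inside it (19.7%). Ctss held neither CACGTG nor GAGGAAGT in this window. Of the other motifs searched on both strands, TATAAA (12.4%) was found in Ctss, GGGCGG (32.7%) in Cst3, Ctsc, Ctsd, Ctss and Ctsz, CAGCTG (13.0%) in Cst3, Ctsd and Ctss, and TGACTCA (4.46%) in 0 of 7. In all, 10 motifs were searched, and a match describes these letters only.

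Expression was read by 60-base probes, whose first 30 bases are shown for Ctss and Ctsh, the lowest and the highest of the group, and for both probes of Ctsz, whose arrays differed most. Positions are the files' own, on mouse build mm9. The Ctss probe lies at chr3:95360162-95360221 (plus strand), the Ctsh probe at chr9:89970828-89970887 (plus), and the Ctsz probes at chr2:174253228-174253287 and chr2:174254084-174254143 (minus). No annotation of that build was used, so exon and UTR are not assigned.
Ctss: ttgcctgcaatatccagaggaaccaagtgt
Ctsh: acctagaatcgtctctctttccagctctct
Ctsz, brighter probe: acagtgcttgtggacatgaggaccagagtg
Ctsz, dimmer probe: gctggggtgtcagcaacgatggcatcgagt

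Between 57.9% and 67.9% of spots were well above background in each dye of each array. Repeat spots of 1 probe (245 probes with 10 spots each) differed by a median SD of 0.10 in log2 ratio on array 1, and by 0.09 on array 2. Log2 ratios are given as HMPA with adenine over adenine alone, as the mean of the arrays, with ± giving how far each array lies from that mean. A gene was counted as lower or higher by size alone, when its mean ratio reached 2-fold and both arrays reached 1.5-fold in that direction. With 1 RNA sample per condition there is no replicate of animals and no p-value, so precision is limited by the number of arrays. Of all genes, 1289 (7.72%) were lower and 1109 (6.64%) higher by this rule, while the rule applied to the dye effect, where the conditions cancel out, gave 0. Across the members, raw signal was 2.85 to 1624 times the local background, and 0 channels were saturated.

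With HMPA, 7 of the 10 genes were lower by this rule and 0 were higher, beside 7.72% lower among all genes. The antigen-processing protease Ctss was lowest, 8.23-fold below adenine alone, followed by Ctsc, Ctsk, Ctsd, Cstb, Ctsl and Cst3. Ctsz, Ctsb and Ctsh did not meet the rule. Ratios were below 0 on both arrays for 9 of 10 members, against 42.9% of all genes. The median of the 10 was −1.26 (−1.24 on array 1 and −1.39 on array 2), beside −0.04 over all genes. These counts describe the group and are no test of it. Overlap of intensities, given below, is between channels that share 1 RNA sample per condition, and its share over all genes is not given. Fewer cells of a type and less RNA per cell cannot be told apart in whole kidney.

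**Figure D1:**
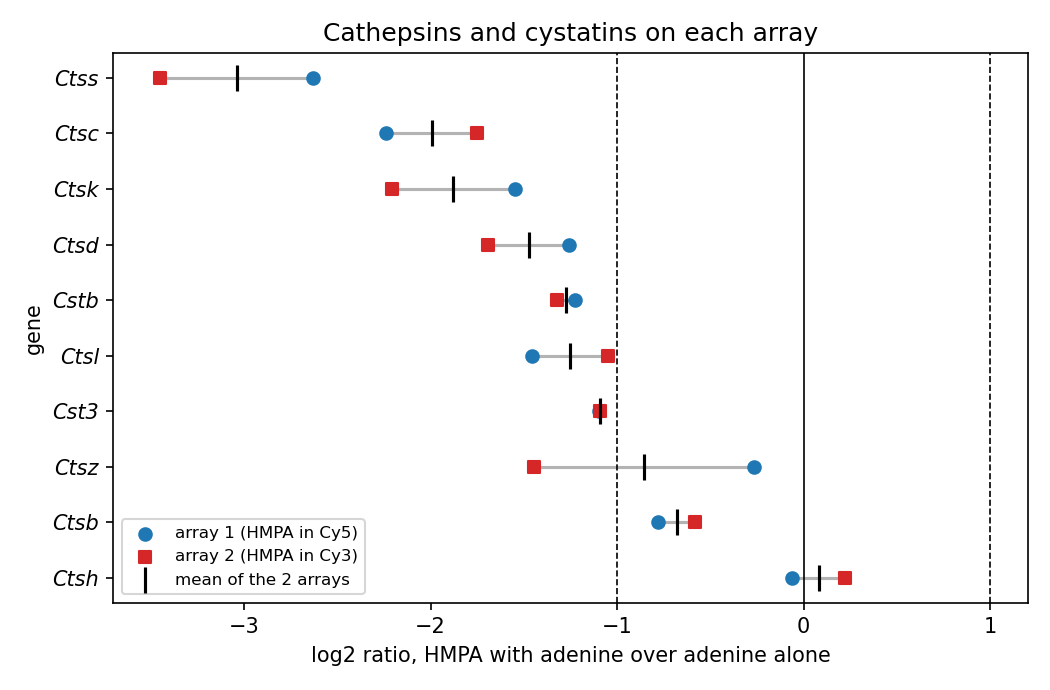
Log2 ratio of HMPA with adenine over adenine alone for each cathepsin and cystatin, on array 1 (circles), on array 2 (squares) and as their mean (bars), with dashed lines at a 2-fold difference. Ctss sits farthest left at −3.04, Ctsh lies at 0.08 with its arrays on either side of 0, and the Ctsz arrays are farthest apart.

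Ctss encodes cathepsin S, the endopeptidase of macrophages, dendritic cells and B cells that cuts the invariant chain of class II molecules. Its normalised intensity was 26849.7 on array 1 and 30849 on array 2 with adenine alone, against 4335 and 2822 with HMPA. Both HMPA values lay far below both adenine values. The log2 ratio was −2.63 on array 1 and −3.45 on array 2 (−3.04 ± 0.41), which placed Ctss 22nd from the lowest of the 16698 genes. Array 2 gave the larger difference, and each array alone met the rule.

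Ctsc encodes cathepsin C, the dipeptidyl peptidase that activates the granule serine proteases of leukocytes. Its intensity was 5465 and 4765 with adenine alone and 1159 and 1415 with HMPA, with no overlap. The ratio was −2.24 on array 1 and −1.75 on array 2 (−1.99 ± 0.24), or 3.99-fold lower. Here array 1 gave the larger difference, the reverse of Ctss.

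Ctsk encodes cathepsin K, best known as the collagen-cutting protease of osteoclasts. Its intensity was 406 and 519.6 with adenine alone and 139 and 113 with HMPA. The 4 values did not overlap, and raw signal with HMPA was 2.85 and 4.17 times the background, the lowest of the 10. The ratio was −1.55 and −2.21 (−1.88 ± 0.33), or 3.67-fold lower. An offset of 50 is added to each intensity, which draws dim ratios toward 0. With an offset of 10 the Ctsk ratio was −2.32, and with the scanner software's own ratios it was −2.53, a move of over 1.5-fold. Markers of osteoclasts did not share this direction as a group: 1 of 7 measured (Calcr) was lower by the rule and 0 were higher, with a median of −0.06. Their summed intensity was 1135 and 1205 with adenine alone and 1154 and 1142 with HMPA. Mmp9, Oscar, Ocstamp and Dcstamp were dim, at 1.28 to 2.83 times the local background with HMPA, where the offset draws ratios toward 0. Among 6 fibroblast and pericyte markers, 5 were lower (median −1.71). The part of either cell type in the Ctsk ratio was not tested.

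Ctsd, the aspartic protease cathepsin D, had intensities of 27323 and 31766 with adenine alone and 11439 and 9839 with HMPA. The groups did not overlap, and the ratio was −1.26 and −1.69 (−1.47 ± 0.22), or 2.78-fold lower. Ctsl, the broad endopeptidase cathepsin L, had intensities of 39992 and 32788 with adenine alone and 14583 and 15862 with HMPA, again without overlap. Its ratio was −1.46 and −1.05 (−1.25 ± 0.20). With the scanner software's ratios Ctsl was −0.97 on both arrays and no longer met the rule.

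Ctsb encodes cathepsin B, an abundant cysteine protease that also trims dipeptides from the carboxyl end. Its intensity was 25341 and 24355 with adenine alone and 14767 and 16260.4 with HMPA. The values did not overlap, but the ratio of −0.78 and −0.58 (−0.68 ± 0.10) was short of 2-fold. Ctsb stayed short of the rule under all 9 alternatives that were run.

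Ctsz encodes cathepsin Z (also called X), a carboxypeptidase. Its brighter probe read 5853 and 8365 with adenine alone and 4859 and 3065 with HMPA. The HMPA values were lower on both arrays, but the ratio was only −0.27 on array 1 and −1.45 on array 2 (−0.86 ± 0.59), the widest gap of the group. The dimmer probe was even, at −0.99 and −0.92 (−0.96 ± 0.03). With the scanner software's ratios the brighter probe gave −0.72 and −1.03. Array 2 alone would have counted Ctsz as lower (−1.45), and array 1 alone would not (−0.27).

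Ctsh encodes cathepsin H, an aminopeptidase, and it was the member with no clear direction. Its intensity was 12395 and 12831 with adenine alone and 11890.5 and 14969 with HMPA. The HMPA values lay on either side of the adenine values, so the groups overlapped. The ratio was −0.06 on array 1 and 0.22 on array 2 (0.08 ± 0.14), within the distance between the arrays. It lay between −0.06 and 0.29 over the 9 alternatives.

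The inhibitors were lower by a similar amount to each other. Cst3 read 24178 and 21982 with adenine alone and 11297 and 10324 with HMPA, without overlap. Its ratio was −1.10 and −1.09 (−1.09 ± 0.0037), or 2.13-fold lower, which was the closest pair of arrays in the group. It lay near the limit of the rule and fell short of it with the scanner software's ratios (−0.91). Cstb read 5346 and 5905 with adenine alone and 2289 and 2362 with HMPA. Its ratio of −1.22 and −1.32 (−1.27 ± 0.05) was 2.42-fold lower and met the rule under all 9 alternatives.

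**Figure D2:**
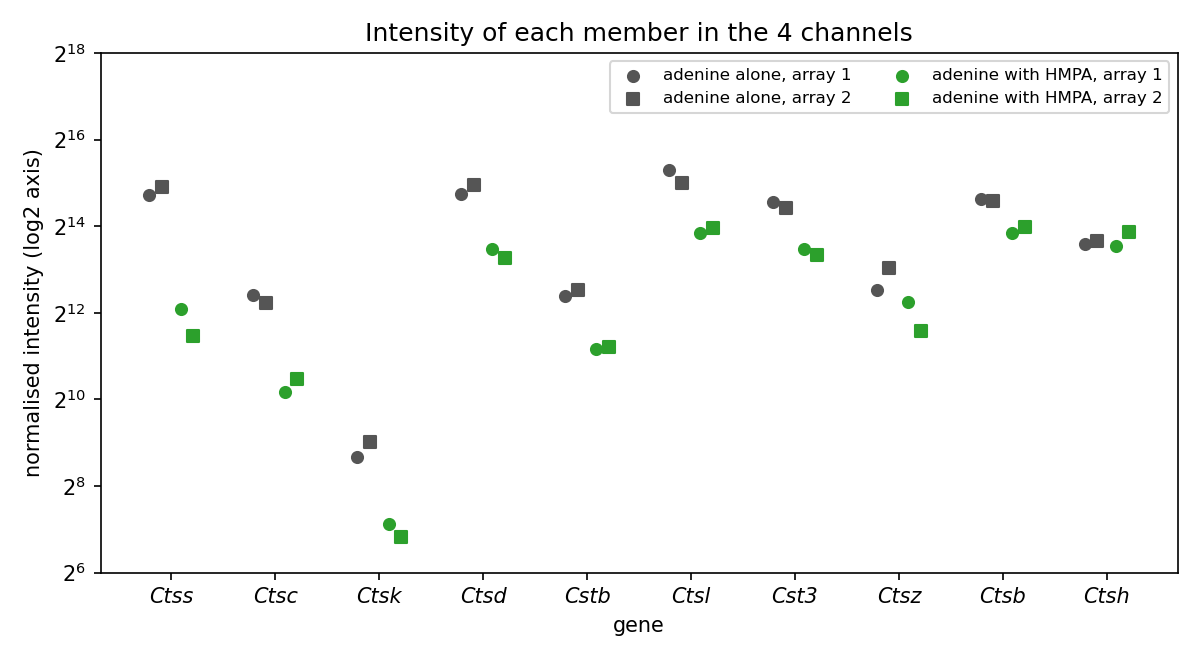
Normalised intensity (log2 axis) of each member in the 4 channels: adenine alone (grey) and adenine with HMPA (green), on array 1 (circles) and array 2 (squares). For Ctss the HMPA points (4335 and 2822) lie well under the adenine points (26849.7 and 30849), while for Ctsh they lie on either side of them; heights of different genes come from different probes and are not comparable.

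Proteases and inhibitors were then compared within each array, where a difference of log2 ratios shows unequal change. Ctss was lower than Cst3 by more than the arrays differed: its log2 ratio minus that of Cst3 was −1.53 on array 1 and −2.36 on array 2. For Ctsc this difference was −1.14 and −0.66, and for Ctsk −0.45 and −1.12. Ctsd was closer, at −0.16 and −0.60. Ctsl, at −0.36 and 0.04, changed sign between the arrays, as did Ctsz, at 0.83 and −0.36. Ctsb, at 0.32 and 0.51, and Ctsh, at 1.04 and 1.31, were less reduced than Cst3 on both arrays. Against Cstb the differences were −1.41 and −2.13 for Ctss and 1.16 and 1.54 for Ctsh. By the probe that stood for each gene, the cystatins therefore lay below Ctsb and Ctsh and above Ctss, Ctsc and Ctsk on each array. The order of Ctsd was not settled: its difference from Cstb was only −0.03 on array 1 and −0.37 on array 2. Its dimmer probe, at −0.56 and −1.47, lay above both cystatins on array 1 and below them on array 2. With the scanner software's ratios Ctsd lay above Cstb on array 2 (−1.36 against −1.48).

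The 4 members with 2 probes gave the same direction from both. For Cstb the brighter probe was −1.27 and the dimmer −0.92 on array 1 and −1.09 on array 2, with starts 368 bases apart. For Ctsd they were −1.47 and −1.02, and the dimmer probe was itself uneven, at −0.56 and −1.47. Taken alone, that probe did not meet the rule, since it was short of 1.5-fold on array 1. For Ctsb they were −0.68 and −0.55, and for Ctsz −0.86 and −0.96. With the mean over all probes in place of the brightest, Ctsd was −1.24 and Cstb −1.14, and the same 7 members met the rule.

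**Figure D3:**
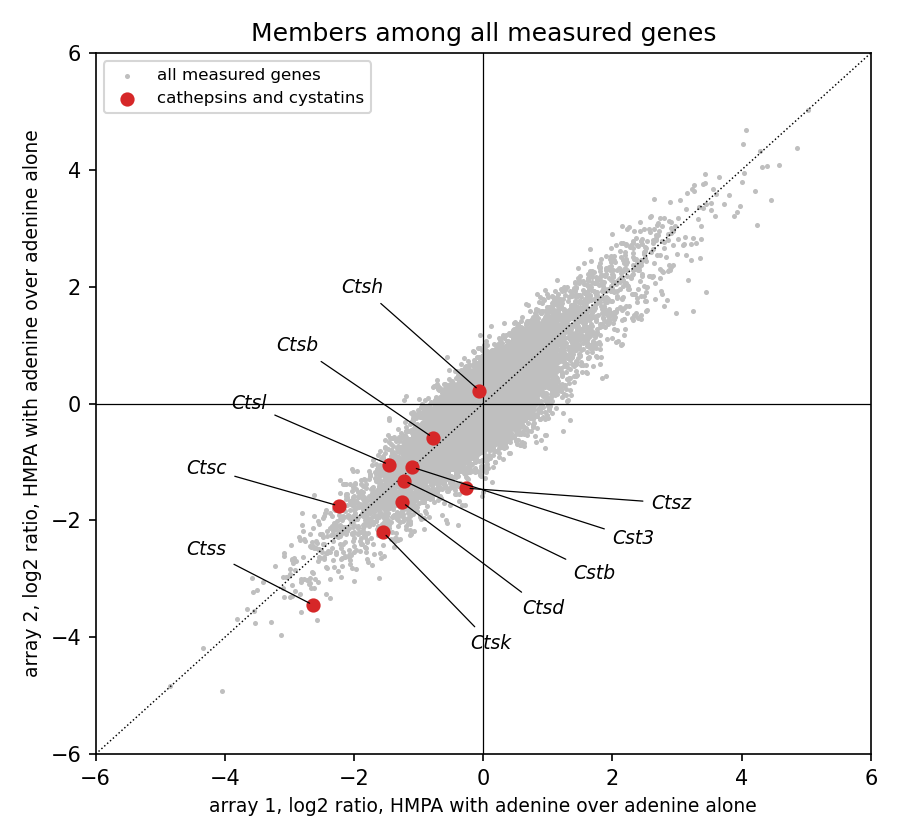
Log2 ratio of HMPA with adenine over adenine alone on array 1 (x axis) against array 2 (y axis) for all 16698 measured genes (grey) and the 10 cathepsins and cystatins (red), with a dotted line of equality. Ctss, at −2.63 and −3.45, is near the lower left end of the cloud, and Ctsz, at −0.27 and −1.45, lies to the right of the line near its edge.

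Other genes of the cathepsin and cystatin families had a median closer to 0 than the members. Of 37 such genes, 21 were measured, 2 met the rule as lower, 1 as higher and 18 not, beside 7.72% and 6.64% of all genes, with a median of −0.19. These counts depended on the processing: 0 to 9 were lower and 0 to 3 higher over the alternatives, with 9 and 3 under the scanner software's ratios and 0 lower when limited to genes above background in all 4 channels. The median was 0.10 under that limit. Csta1, a stefin A, was lowest (−1.78 ± 0.16), but with HMPA it was well above background on 1 of the arrays only, at 1.13 and 1.72 times the local background. Its ratio was −2.98 with an offset of 10 and −4.52 with the software's ratios. Its neighbour in sequence Stfa2l1 was at least 2.64-fold lower, where a bound sets the brighter condition against the higher of the dim signal itself and the lowest signal well above background, because the probe was not well above background with HMPA on either array. Stfa1 was at least 1.83-fold and Stfa2 at least 1.56-fold lower, both short of the rule here. Both met it with an offset of 10, without background subtraction and with the software's ratios. For Stfa2l1, Stfa1 and Stfa2 the bound equals the measured ratio, because the dim signal itself was the higher of the 2 limits. Stefin A probes may bind transcripts of their close paralogs. The stefin A genes are known in mouse myeloid cells, neutrophils among them. All 3 measured neutrophil markers met the rule as lower (median −2.55), and their part in these values was not tested. Stfa3 lay at −0.02 ± 0.0029, but at 1.35 to 2.26 times the local background, where the offset draws ratios toward 0.

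Hrg, a plasma glycoprotein of the cystatin superfamily made by liver, was higher (1.00 ± 0.26) at the limit of the rule, and fell short of it with median centring (0.78) and on array 1 alone (0.74). The remaining relatives did not meet the rule as reported. Ctsa, the lysosomal carboxypeptidase that protects neuraminidase, was −0.24 ± 0.17, and its 4 probes ran from −0.35 to 0.04. Ctsf was 0.31 ± 0.06, and Ctso was 0.44 ± 0.49, with arrays at 0.93 and −0.05. Kng1, the kininogen with cystatin domains, was 0.23 ± 0.16, and its second probe was −0.10. Ctse, an aspartic protease outside the classical lysosomal set, was −0.81 ± 0.27, and met the rule under 4 alternatives: the software's ratios (−1.29), median centring (−1.11), an offset of 10 (−1.12) and array 2 alone (−1.09). Ctsw of cytotoxic lymphocytes was −0.26 ± 0.01 and Cts7 −0.37 ± 0.15, which was −1.07 and met the rule with the software's ratios. Cst6 (−0.0037 ± 0.13), Ctsg (0.10 ± 0.01) and Fetub (0.27 ± 0.03) lay near 0. These genes were dim, at 1.16 to 2.92 times the local background, where the offset draws ratios toward 0, so a difference may go unseen. With HMPA, Ctsw (1.59 and 2.57 times) and Cts7 (1.42 and 2.36 times) were dim too. Cst7, Cst12, Ctsm, Cst8 and Ctsr were not well above background in 1 of the conditions, and their bounds were no more than 1.19-fold; with the software's ratios, all 5 met the rule.

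The other lysosomal lists had medians nearer to 0 than the members. Of 42 measured hydrolases and cofactors, there were 4 lower and 4 higher by the rule, around a median of 0.09 (−0.10 with median centring), beside 7.72% lower and 6.64% higher among all genes. On array 2 alone 10 were higher, with the software's ratios or an offset of 10 there were 8, without background subtraction 7, and with median centring 7 were lower. The lowest were Lyz2, the lysozyme of myeloid cells (−2.91 ± 0.10), Hexa, a subunit of hexosaminidase (−1.48 ± 0.05), and Pla2g15, a lysosomal phospholipase (−1.42 ± 0.19). The highest were the sialidase Neu1 (1.66 ± 0.41), the sulfatase Arsb (1.44 ± 0.10) and the ganglioside activator Gm2a (1.23 ± 0.10, or 0.99 and short of the rule with median centring). Of 20 lysosomal membrane genes, 5 were lower and 0 higher, with 1 higher under the software's ratios and 2 on array 2 alone, and their median was −0.13 (0.015 with the scanner software's ratios and 0.0059 on array 1 alone). Gpnmb (−2.80 ± 0.24, or −3.71 with an offset of 10 and −4.37 with the software's ratios), Cd68 (−1.64 ± 0.27) and Laptm5 (−1.57 ± 0.04), all known in macrophages, were lowest.

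The proton pump that acidifies lysosomes had a median above 0. Of 23 measured subunits, 0 were lower and 2 were higher by the rule, a share near the 6.64% of all genes. On array 1 alone 4 were higher. Their median of 0.50 lay between 0.23 and 0.56 over the alternatives. The 2 were Atp6v1c2 (1.82 ± 0.21) and Atp6v1g3 (1.74 ± 0.13), known as subunits of the intercalated cell pump. Of 16 genes that sort hydrolases or take up protein, 0 were lower and 2 higher (median 0.23), again beside 6.64%, and median centring made 1 lower. The 2 higher were Lrp2 (2.73 ± 0.07, or 2.01 with the mean over its probes) and Cubn (2.20 ± 0.02), encoding megalin and cubilin, the receptors through which the proximal tubule takes up filtered proteins. Both are counted again among the proximal tubule markers below. None of 6 transcription factors of lysosomal or myeloid genes met the rule in either direction (1 was lower with the software's ratios), with values from −0.47 ± 0.12 (Mitf) to 0.31 ± 0.34 (Tfec). Tfeb and Spi1, the gene of PU.1, were dim. Tfeb read at 1.37 to 2.16 times the local background, and Spi1 at 1.14 and 1.87 times with HMPA. Spi1 was well above background with HMPA on 1 array only. The offset draws such ratios toward 0, so a difference in either gene may go unseen.

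Of 9 measured partners and substrates, 3 were lower and 1 higher, beside 7.72% and 6.64% of all genes. Their median was −0.74 and lay between −1.06 and −0.28 over the alternatives, with 5 lower under median centring and 2 higher under the software's ratios. Cd74, the invariant chain that Ctss cuts, was −1.77 ± 0.17. Fibronectin (Fn1, −1.86 ± 0.04, but −0.95 and short of the rule with the mean over its probes) and galectin 3 (Lgals3, −1.68 ± 0.55) were also lower. Pepd, the prolidase that finishes collagen peptides, was higher (1.32 ± 0.19).

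**Figure D4:**
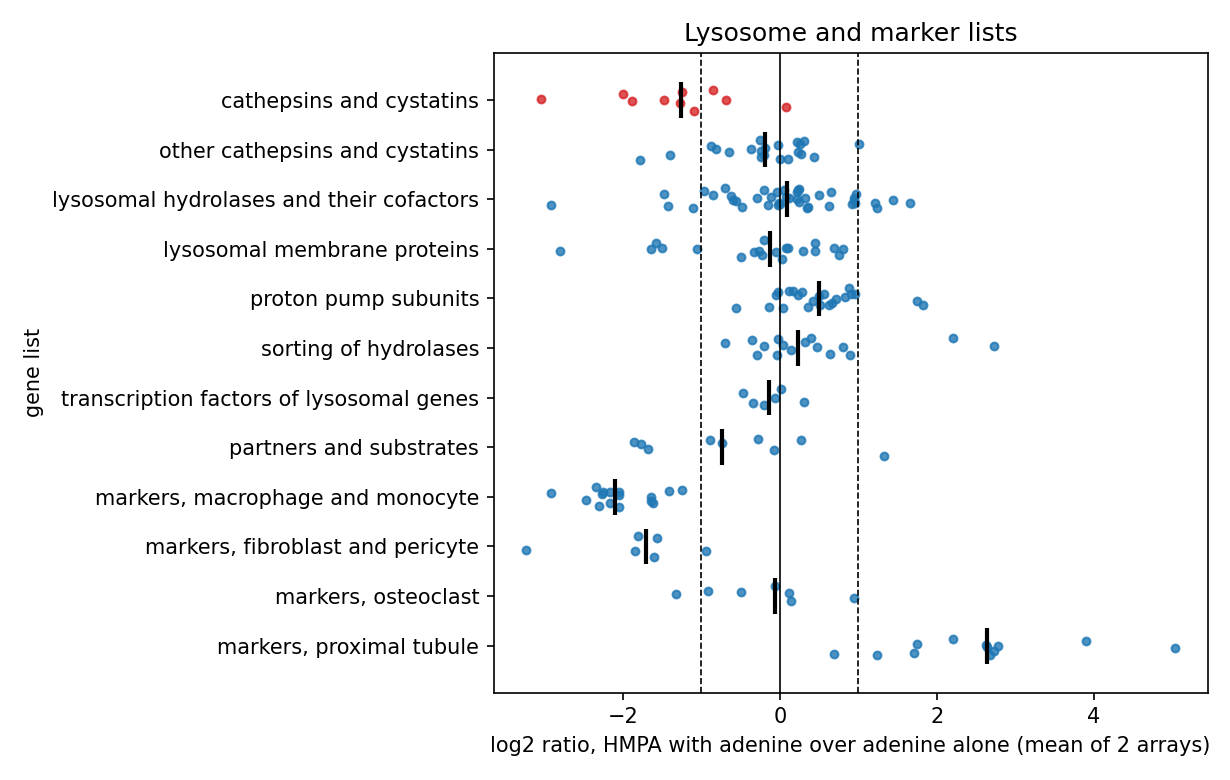
Log2 ratio of HMPA with adenine over adenine alone (mean of the arrays, x axis) for each measured gene of each list (y axis), with a bar at the median and dashed lines at a 2-fold difference. The cathepsins and cystatins (red, median −1.26) lie left of the other lysosomal lists, while macrophage markers (median −2.11) lie farther left and proximal tubule markers (median 2.63) far right.

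Markers of macrophages differed between the conditions in the members' direction, and those of the proximal tubule in the opposite one. All 16 of 16 macrophage and monocyte markers were measured and met the rule as lower, with a median of −2.11 and a range of −2.91 (Lyz2) to −1.24 (Ptprc). Lyz2 and Cd68 are among them and were also counted in the hydrolase and membrane lists. The summed intensity of these markers was 111238 and 106019.8 with adenine alone and 20081 and 18448 with HMPA. Such sums follow the brightest probes: Lyz2 alone gave 58839 and 57627 with adenine alone. The summed intensity of the members was 173149 and 174126 with adenine alone and 76756 and 77030.3 with HMPA. Of 12 proximal tubule markers, 11 were higher and 0 lower (median 2.63), and their summed intensity was 34436 and 48858 with adenine alone and 275134 and 275260.4 with HMPA. Of 6 fibroblast and pericyte markers, 5 were lower (median −1.71), with summed intensities of 46811 and 42431 against 9547 and 8271. By the mean of the arrays, Ctss, at −3.04, lay below the lowest of the macrophage markers. Ctsc, Ctsk, Ctsd, Cstb and Ctsl lay within their range, and Ctsh, Ctsb, Ctsz and Cst3 above their highest. The arrays did not all give this order. Ctss lay above Lyz2 on array 1 (−2.63 against −2.81) and below it on array 2 (−3.45 against −3.01). Ctsl was close to Ptprc by mean (−1.25 against −1.24) and above it on array 2 (−1.05 against −1.07). On array 2 Cst3 (−1.09) and Ctsz (−1.45) lay below Ptprc. The part of these cell types in the members' ratios was not tested.

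**Figure D5:**
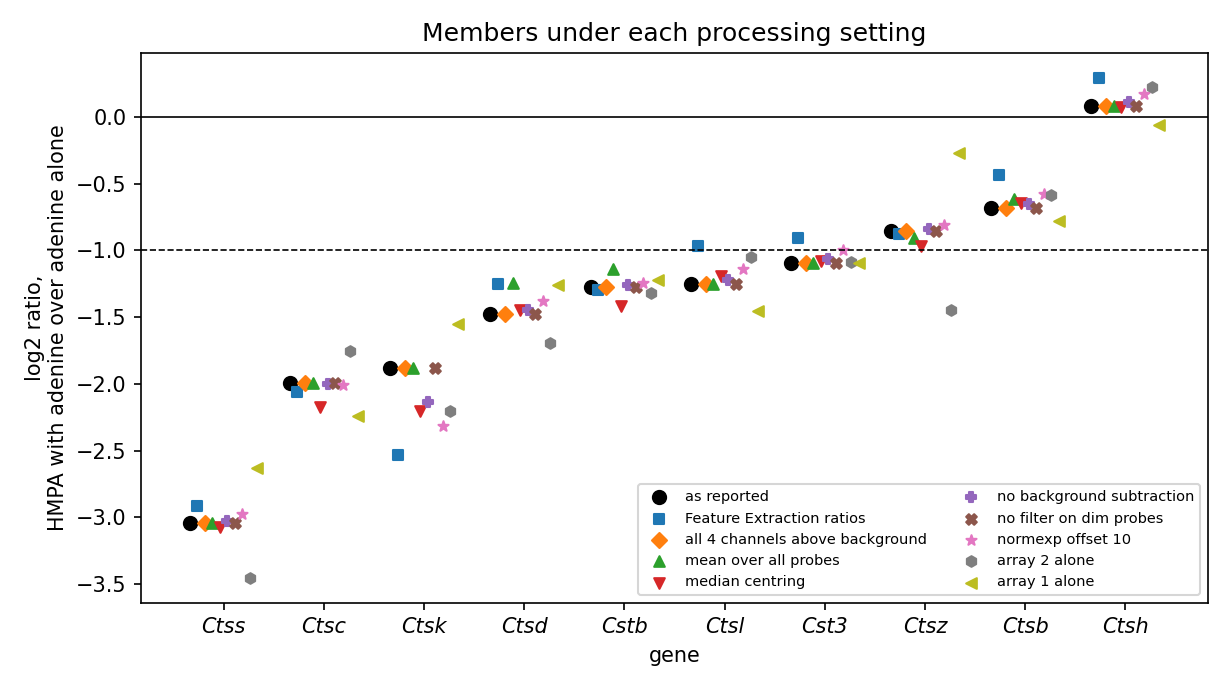
Log2 ratio of HMPA with adenine over adenine alone (y axis) of each member (x axis) as reported and under each of 9 alternative settings, with a dashed line at a 2-fold difference. Ctss, Ctsc, Ctsk, Ctsd and Cstb stay below the line under every setting shown, Ctsl and Cst3 rise above it with the Feature Extraction ratios, and Ctsz drops below it on array 2 alone.

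Scaling by median centring had little effect on the members. With median centring in place of loess, the median of all genes moved from −0.04 to −0.22, and the share of higher genes among those that met the rule fell from 46.2% to 27.5%. The members' median was then −1.31, or −1.08 relative to all genes, and 7 of 10 met the rule as lower. With the scanner software's ratios 5 of 10 met it.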

How the data were processed

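Kidney RNA of 2 conditions was compared on 2 dual-colour Agilent arrays with the dyes swapped. Per the file headers, the scanner images were read by Feature Extraction version 12.2.0.7, and per the submitters' processing notes by 9.5. The spot means and background medians used here are intensity per the file headers, with no normalization. The deposited LogRatio column is log10 of red over green after the software's own background and dye correction, per the file headers; the series' value table repeats these log10 values to within 0.00498 and 0.00499, without turning the swapped array, and the median of each of its columns is 0.

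In R 4.3.3 with limma 3.58.1, background was corrected by normexp (offset 50, fitted on all spots), ratios were normalised by loess with control and unreliable spots at weight 0, and turned to HMPA over adenine. Channel intensities were also scaled between arrays (Aquantile). Spots of a probe were averaged. Probes well above background in 1 condition on both arrays were kept (25138 of 41174), and the brightest stood for its gene. Names came from RefSeq through the accession for 21374 kept probes, the symbol for 1932 and an older symbol for 8, and 1824 kept the file's name. The procedure was tested on simulated data with known ratios. Python 3.11.15 with pandas 2.3.3 and matplotlib 3.10.9 gave counts and plots.

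The members and lists were chosen with earlier results of these data known. All members and all measured relatives were named, and of each lysosomal list up to 3 lowest and 3 highest genes that met the rule, or the lowest and highest where 0 did. Ptprc and Calcr, named as the highest macrophage marker and the single osteoclast marker that met the rule, were chosen after their values were seen. Tfeb, Spi1, Mmp9, Oscar, Ocstamp and Dcstamp were named for their low signal, also after their values were seen. The 9 alternatives were an offset of 10, no background subtraction, median centring, the LogRatio column, no filter on dim probes, a filter on all 4 channels, the mean over probes, and each array alone.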

Additional observations from a re-analysis of the deposited data

How the results depend on the processing

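Over the 9 alternatives run, 7 or more members were lower in 8 and 5 in the other, the scanner software's ratios, under which Cst3 (−0.91) and Ctsl (−0.97) fell short of the rule; 0 were higher in all 9. That setting gave a members' median of −1.11, with 2043 genes higher and 2461 lower over all genes, and median centring gave 1973 lower. Leaving out array 1 or array 2 gave 8 and 7 members lower, medians of −1.39 and −1.24, 1253 and 1154 genes higher and 1484 and 1280 lower. Ctsk reached −2.53 with the software's ratios. Median signs near 0 turned for hydrolases with median centring (−0.10), for membrane genes with the software's ratios (0.015) and on array 1 alone (0.0059, against −0.46 on array 2), and for the other family genes when limited to all 4 channels above background (0.10). The cause was not tested. Each array holds both conditions of 1 RNA pair, so every ratio is taken within that pair. No analysis paired by animal was possible, because the arrays were treated as 1 RNA sample per condition and form a single group. The number of arrays, 1 RNA sample per condition and the low signal of Ctsk, of Tfeb and Spi1 and of most relatives limit these values.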

Other observations

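Markers of cell types that were not set beside the members gave the following values. Of 5 collecting duct markers, 4 were higher with HMPA (median 1.74), among them Atp6v1g3, also counted in the proton pump list. Of 5 markers of the loop and distal tubule 3 were higher (median 1.22). None of 4 podocyte markers (median −0.02), 4 endothelial markers (median −0.21), 5 T and NK cell markers (median −0.09) or 2 measured B cell markers (median −0.09) met the rule in either direction. Of 3 measured adipocyte markers, 2 were lower (median −2.18).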
